A study of Mus musculus with 64 samples.

Results

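Hepatic stellate cell and fibrillar matrix genes were followed as a set of 10: Col1a1, Col1a2, Col3a1, Des, Lrat, Pdgfrb, Lum, Acta2, Hgf and Reln. They were found by gene symbol among the 23338 genes of the deposited read count files, all 10 were present, and the rule that found them uses no measured value. The counts came from 64 libraries of C57BL/6 mice (C57BL/6 J in the study's methods), comprising 12 single 8-cell embryos (6 male, 6 female), 4 embryonic stem (ES) cell lines kept in 2i medium (2 male, 2 female), 24 fetal livers from late gestation and 24 adult livers (12 male and 12 female at each age). No mouse carried a transgene or received a treatment in the labels, each ES sample was 1 line, and the livers were whole organs, so every cell type of the organ contributed RNA. ES and liver libraries came from a stranded total RNA kit, whereas the embryos were amplified by a protocol adapted from single-cell work. Stage and protocol cannot be told apart for the embryos.

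Stellate cells lie between hepatocytes and the sinusoidal endothelium, where they store vitamin A as retinyl esters and act as the liver's pericytes. After injury they lose these stores, take on contractile filaments and lay down collagen I and collagen III, the fibrils of scar tissue. They are also a main hepatic source of hepatocyte growth factor. Among the 10 genes, Col1a1 and Col1a2 encode the 2 chains of collagen I, Col3a1 the chain of collagen III, and Lum the collagen-binding proteoglycan lumican. Acta2 (smooth muscle alpha-actin) and Des (the intermediate filament desmin) are cytoskeletal, and Lrat makes the retinyl esters. Pdgfrb is a receptor for platelet-derived growth factor, whereas Hgf (the ligand of Met) and Reln (the glycoprotein reelin) are secreted. Collagens, Lum and Acta2 are made by portal fibroblasts and smooth muscle as well, so the set is not exclusive to one cell type.

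Promoter sequences were available for 7 of the 10 genes in RefSeq (GRCm38.p6), each window reaching from 250 bases before the transcription start to 50 bases after it. Those of Col1a2 and Col3a1, collagen genes lower in adult than in fetal liver, and of Lrat, which was higher, are shown because these genes moved in opposite directions between the stages. Capitals mark matches to the CCAAT box (CCAAT), the TATA box (TATAAA) and the GC box (GGGCGG), searched on both strands, so that ATTGG and CCGCCC are the reverse complements. No 2 matches overlapped.
Col1a2 (chr6:4505368-4505667, plus strand): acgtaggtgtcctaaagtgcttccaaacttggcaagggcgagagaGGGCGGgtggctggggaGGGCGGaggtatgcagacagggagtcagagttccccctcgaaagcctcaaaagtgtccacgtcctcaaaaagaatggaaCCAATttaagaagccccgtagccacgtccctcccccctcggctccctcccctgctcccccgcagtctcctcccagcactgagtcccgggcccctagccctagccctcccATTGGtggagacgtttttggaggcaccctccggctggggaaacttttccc
Col3a1 (chr1:45311288-45311587, plus strand): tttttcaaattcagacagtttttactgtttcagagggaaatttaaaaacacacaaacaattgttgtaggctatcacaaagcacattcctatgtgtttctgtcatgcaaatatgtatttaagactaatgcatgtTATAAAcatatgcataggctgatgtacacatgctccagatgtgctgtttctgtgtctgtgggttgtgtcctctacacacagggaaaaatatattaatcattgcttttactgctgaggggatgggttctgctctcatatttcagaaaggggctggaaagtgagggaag
Lrat (chr3:82903925-82904224, minus strand): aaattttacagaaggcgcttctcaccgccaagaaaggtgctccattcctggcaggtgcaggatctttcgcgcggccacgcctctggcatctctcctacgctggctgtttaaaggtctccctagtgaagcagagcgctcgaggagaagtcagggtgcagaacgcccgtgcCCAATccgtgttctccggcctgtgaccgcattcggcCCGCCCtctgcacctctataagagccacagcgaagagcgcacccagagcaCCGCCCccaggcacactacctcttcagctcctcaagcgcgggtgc
The Col1a2 window held a CCAAT box that began 109 bases before the start, a second in reverse orientation at base 1 of the transcript, and GC boxes 205 and 188 bases before the start. The Col3a1 window held the letters TATAAA 117 bases before the start. Lrat had a CCAAT box 81 bases before the start and GC boxes in reverse orientation 45 bases before it and at base 6 after it. Of 32851 mouse promoter windows of the same length, 37.4% held CCAAT, 35.7% GGGCGG and 13.6% TATAAA, so none of these matches was rare. The CArG box of muscle genes, also searched, was found in none of the printed windows and in 1.63% of all windows. These matches describe letters only.

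Reads on genes ranged from 9857929 to 10386931 in ES lines, 4659656 to 7725432 in embryos, 5145371 to 8499603 in fetal liver and 1567583 to 4757610 in adult liver, where 7 libraries held fewer than 2000000. Summed markers followed the labels: 12 hepatocyte genes took 22700 to 31400 reads per 1000000 reads on genes (CPM) in fetal and 56800 to 82500 CPM in adult livers, and 10 pluripotency genes took 2600 to 6550 CPM in ES lines and embryos against 14.6 to 37.3 CPM in livers. Markers of red cell precursors took 5440 to 8200 CPM in fetal and 55.3 to 348 CPM in adult livers. In 7 of 24 fetal livers (male 5, 11 and 12, female 14, 15, 20 and 24) 8 markers of exocrine pancreas summed to 18.9 to 879 CPM, against 5.74 CPM or less in the other 17, and results were recomputed without these 7. Reads outside annotated genes made up 39.9 to 49.0% of counted reads in male fetal livers and 34.1 to 38.1% in female fetal livers, with no overlap. Unless stated otherwise, CPM values below were scaled by TMM (trimmed mean of M-values), which sets libraries to a common level over most genes. This was done for all livers together and for ES lines and embryos each apart. Between these groups CPM values are therefore not on a common scale.

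In the 8-cell embryos, 9 of the 10 genes had no read in any of the 12 libraries. A count of 0 allows up to 3 reads, which is 0.388 to 0.644 CPM per embryo and covers counting error only. Reln was the exception, with 21, 23 and 49 reads in female embryos 8, 9 and 11 and none in the other 9 embryos.

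**Figure D1:**
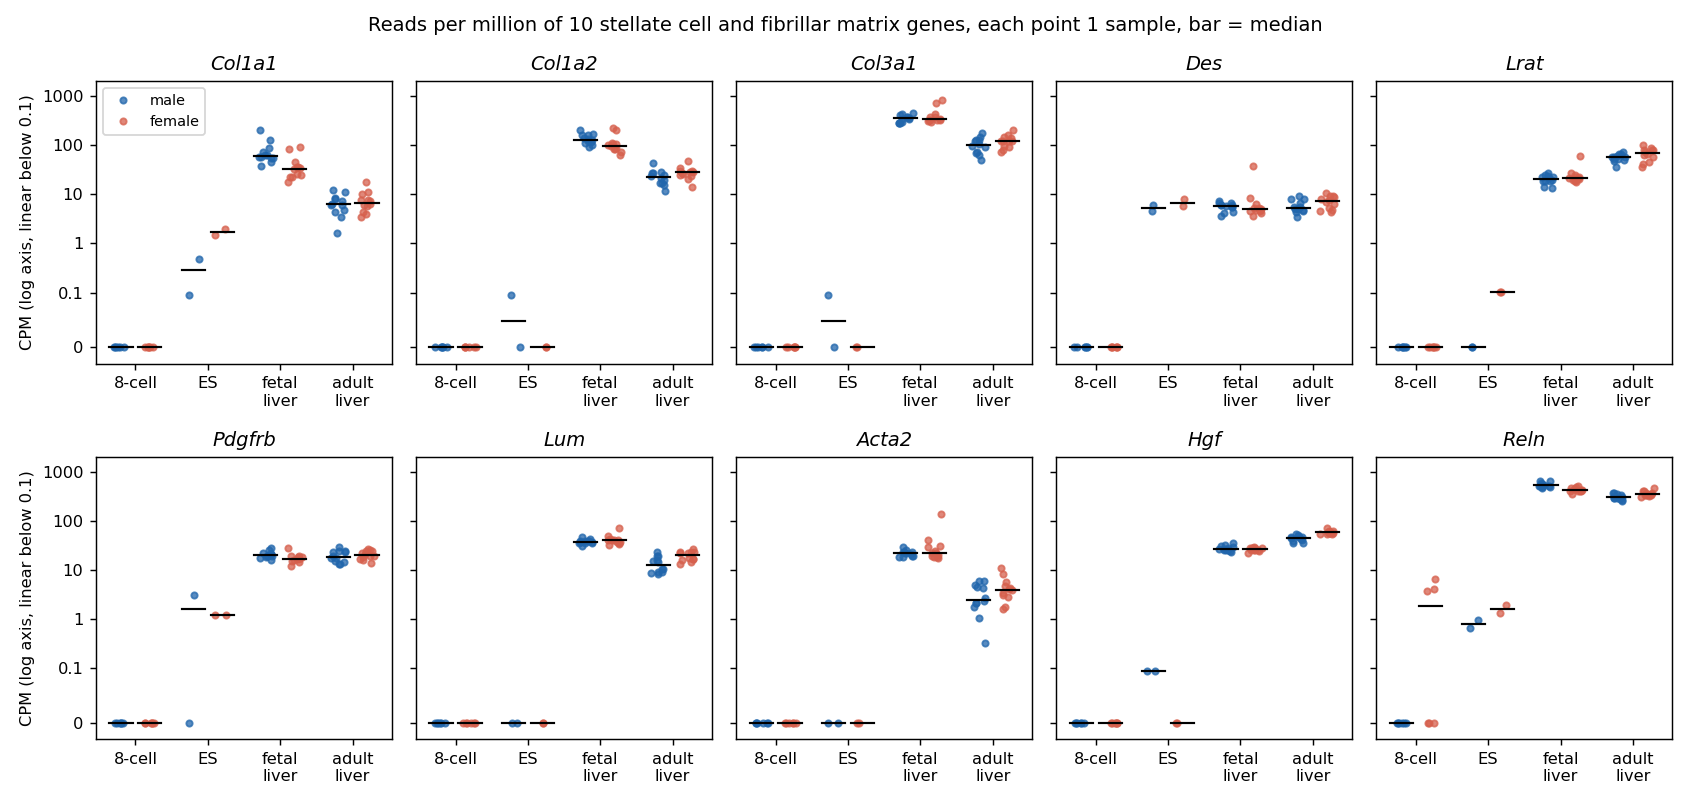
Level of each of the 10 genes in every library, in CPM (log axis, linear below 0.1), by stage and sex; each point is 1 sample and each bar a median. Embryos sit at 0 except for 3 Reln values, Des lies between 4.49 and 7.88 CPM in ES lines, and the adult points of Col1a1, Col1a2, Col3a1, Lum and Acta2 lie below most or all fetal ones.

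The 4 ES lines separated Des from the other 9 genes. Des gave 47, 62, 78 and 55 reads in ES lines 1 to 4, or 4.49 to 7.88 CPM, which lay within the fetal liver range of 3.64 to 37.3 CPM. On plain totals Des also lay within that range, at 4.53 to 7.80 CPM in ES lines and 4.33 to 47.25 CPM in fetal livers. Col1a1 gave 1, 5, 15 and 19 reads, Pdgfrb 0, 33, 12 and 12 reads, and Reln 7, 10, 13 and 19 reads, so that these were detected at low level in at least 3 lines. Lum and Acta2 had no read in the 4 lines together, Col1a2 and Col3a1 had 1 read each, and Lrat and Hgf had 2 each.

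Against the ES lines, 9 of the 10 genes were called higher in fetal liver and Des was not. A call here and below required an adjusted p under 0.1 and an absolute log2 fold change above 0.5, in edgeR's quasi-likelihood test with Benjamini-Hochberg adjustment over all genes tested. Between these tissues 76.5% of 14858 genes were called and 41.2% were called higher in fetal liver. Reln was higher by 9.16 on the log2 scale (SE 0.16), Col1a1 by 6.71 (SE 0.79) and Pdgfrb by 4.23 (SE 0.32). Single lines set the last pair: without ES line 2 Col1a1 gave 7.38 and Pdgfrb 7.39, the only other male line having no Pdgfrb read, and without ES line 1 Pdgfrb gave 3.72. Against 3 reads over all ES lines, Lum was at least 661-fold and Acta2 at least 463-fold higher in fetal liver. For the genes with 1 or 2 ES reads only a ratio with its 95% counting interval can be given: 19100 (3440 to 756000) for Col3a1, 6190 (1110 to 244000) for Col1a2, 667 (185 to 5510) for Hgf and 557 (154 to 4600) for Lrat. For Des the difference was 0.65 (SE 0.44, edgeR adjusted p = 0.168). Female fetal liver 14 held 37.3 CPM of Des and the next highest fetal liver 8.35 CPM. On plain totals the Des medians were 5.80 CPM in ES lines and 6.395 CPM in fetal livers.

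Between fetal and adult liver, 6 of the 10 genes fell, 2 rose and 2 did not pass the test. Matrix genes and Acta2 fell most, Reln fell slightly, and Lrat and Hgf rose. These calls were made against a background of 67.1% of 13026 genes called (31.7% higher and 35.4% lower in adult liver), so a call by itself sets no gene apart. The median log2 difference of the 10 genes was -0.90, and that of all genes tested was -0.05. Fetal and adult livers did not overlap at all for 4 of the 10 genes (Col1a2, Col3a1, Lum and Acta2), against 41.1% of all genes tested. In whole organs, fewer cells of a type and less RNA per cell cannot be told apart.

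The fibrillar collagens fell 3- to 7-fold. Col1a1 (ENSMUSG00000001506, chr11:94936224-94953042) ranged from 17.5 CPM in the lowest to 199 CPM in the highest fetal liver with a median of 49.9, and from 1.67 to 17.9 CPM with a median of 6.31 in adult liver. Every adult liver but female 22 lay below every fetal liver, and Col1a1 fell by 2.88 on the log2 scale (SE 0.24, edgeR adjusted p = 5.71e-15), a 7.38-fold lower level. Col1a2 (ENSMUSG00000029661, chr6:4504814-4541544) ranged from 62.7 to 227 CPM (median 110.3) in fetal and from 11.7 to 46.6 CPM (median 25.5) in adult liver. It fell by 2.26 (SE 0.14, edgeR adjusted p = 1.12e-19) with a clear gap between the ages. Col3a1 (ENSMUSG00000026043, chr1:45311538-45349706), the most abundant of the collagens, ranged from 280.1 to 815 CPM (median 345) in fetal and from 48.7 to 199.9 CPM (median 119) in adult liver. It fell by 1.75 (SE 0.13, edgeR adjusted p = 5.27e-17), again without overlap. The 2 highest fetal Col3a1 values, 815 CPM in female 15 and 719 CPM in female 14, came from livers with pancreas markers, and without all 7 such livers Col1a1, Col1a2 and Col3a1 still fell, by 2.51, 2.06 and 1.58.

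Lum (ENSMUSG00000036446, chr10:97565128-97572703), which regulates the spacing of collagen fibrils, fell with the collagens. Fetal livers ranged from 31.2 to 71.3 CPM with a median of 37.9, and adult livers from 8.29 to 26.8 CPM with a median of 16.4. The 2 ages did not overlap, and Lum fell by 1.27 on the log2 scale (SE 0.09, edgeR adjusted p = 5.87e-18), or 2.41-fold.

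Of the cytoskeletal pair, Acta2 was called and Des was not. Acta2 (ENSMUSG00000035783, chr19:34241090-34255590) ranged from 17.8 to 137 CPM (median 22.3) in fetal liver and from 0.332 to 11.04 CPM (median 3.64) in adult liver, where it rested on 1 to 25 reads per library. All adult livers lay below all fetal livers, and Acta2 fell by 2.87 (SE 0.27, edgeR adjusted p = 1.25e-13). Des (ENSMUSG00000026208, chr1:75360329-75368579) ranged from 3.64 to 37.3 CPM (median 5.39) in fetal and from 3.49 to 10.52 CPM (median 5.925) in adult liver, and the ages overlapped almost completely. Its log2 difference was -0.03 (SE 0.22, edgeR adjusted p = 0.883). Both fetal maxima came from female liver 14, and without that library the Des difference was 0.27 (edgeR adjusted p = 0.018). Without all 7 livers with pancreas markers Acta2 fell by 2.58, while Des gave 0.33 (edgeR adjusted p = 0.00423), under the fold threshold, and the count over the set was again 6 lower and 2 higher, against 66.8% of all genes called.

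Lrat (ENSMUSG00000028003, chr3:82892579-82903973) moved the other way from the matrix genes. It ranged from 13.2 to 59.6 CPM (median 21.6) in fetal liver and from 35.1 to 98.6 CPM (median 58.8) in adult liver. Only female fetal liver 14, at 59.6 CPM, reached into the adult range, and the next highest fetal liver held 27.2 CPM. Lrat rose by 1.46 on the log2 scale (SE 0.11, edgeR adjusted p = 1.86e-16), a 2.75-fold higher level, and by 1.56 without the 7 livers.

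Of the growth factor genes, the receptor gene did not pass the test and the ligand gene rose. Pdgfrb (ENSMUSG00000024620) ranged from 11.9 to 27.5 CPM (median 18.7) in fetal and from 13.3 to 29.1 CPM (median 19.3) in adult liver, with a log2 difference of 0.10 (SE 0.09, edgeR adjusted p = 0.277). Hgf (ENSMUSG00000028864, chr5:16553495-16620152) ranged from 22.5 to 36.0 CPM (median 26.7) in fetal and from 35.3 to 69.9 CPM (median 53.1) in adult liver. In 22 of 24 adult livers Hgf lay above every fetal liver, and it rose by 0.92 (SE 0.05, edgeR adjusted p = 6.46e-26), or 1.89-fold. Of the exon bases of Hgf, 6.74% were shared with another annotation on the same strand (Gm43489), so a few of its reads could belong to either.

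Reln (ENSMUSG00000042453, chr5:21884454-22344702) was the gene with the most reads of the set in adult liver and in the typical fetal liver. It ranged from 353 to 632 CPM (median 481) in fetal and from 254 to 465 CPM (median 335) in adult liver. In 16 of 24 adult livers Reln lay below every fetal liver. It fell by 0.52 on the log2 scale (SE 0.05, edgeR adjusted p = 1.86e-15), just past the fold threshold, and by 0.46, no longer past it, when livers with under 40% of mapped reads on genes were left out. Antisense annotations covered 1.04% of the exon bases of Reln and 5.86% of those of Des, and the strand setting of the read counting was not stated.

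**Figure D2:**
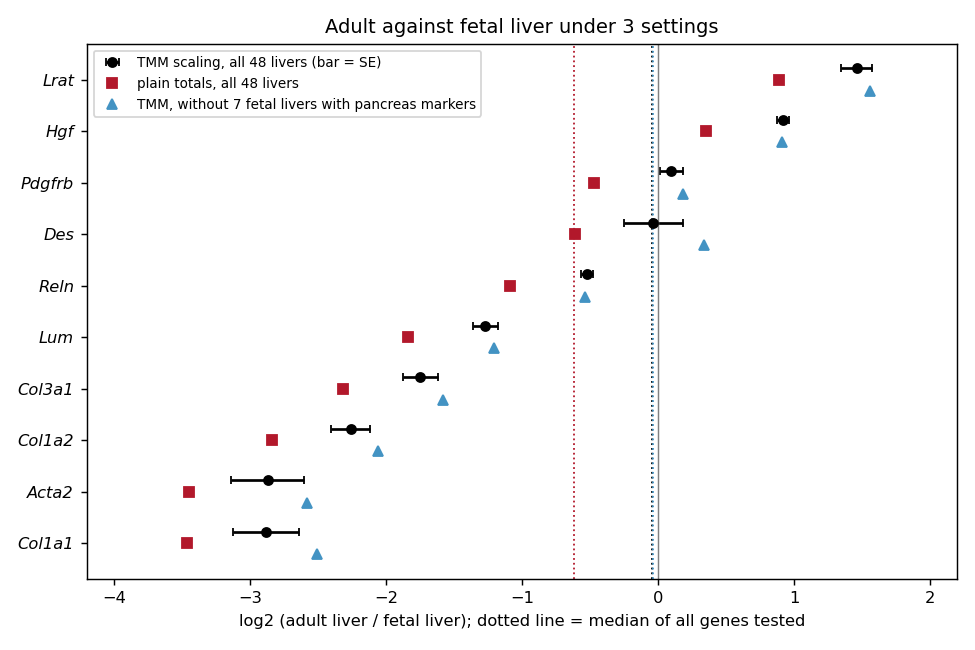
Log2 difference of adult over fetal liver for the 10 genes with TMM scaling and all 48 livers (black, bar = SE), with plain totals (red squares), and with TMM scaling without the 7 fetal livers that held pancreas markers (blue triangles); dotted lines are the medians of all genes tested. Values run from -2.88 for Col1a1 to 1.46 for Lrat in the first setting, and plain totals moved all 10 to the left.

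Scaling set the zero of this comparison. With plain library totals in place of TMM, 1 of the 10 genes was called higher and 7 lower against 72.4% of all genes called, and the median of all 13026 genes was -0.615, and 2399 genes were called higher and 7034 lower in adult liver, compared with 4132 and 4610. All 10 genes shifted by about the same amount. Col1a1, Col1a2, Col3a1, Lum, Acta2 and Reln still fell and Lrat still rose by 0.89. Hgf, at 0.35, was no longer past the fold threshold, Des was called lower at -0.61, and Pdgfrb reversed to -0.47. The direction of Pdgfrb therefore changed with the scaling, and Des gained a call while staying below 0. Genes of red cell precursors, which took many fetal reads and few adult ones, moved with the stage as given above, and their part in these differences was not tested.

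Levels of different genes were compared per kilobase of the longest annotated transcript. In fetal liver, the order by median was Col3a1 (62.1 CPM per kb), Reln (41.1), Col1a2 (20.6), Lum (15.5), Acta2 (10.97), Col1a1 (8.41), Hgf (7.70), Lrat (4.04), Pdgfrb (3.45) and Des (1.78). Col3a1 exceeded Reln in 23 of 24 fetal livers, but Col1a1 exceeded Hgf in only 14, so these neighbours were not separated. In adult liver, the order was Reln (28.7 CPM per kb), Col3a1 (21.5), Hgf (15.3), Lrat (10.99), Lum (6.68), Col1a2 (4.77), Pdgfrb (3.56), Des (1.96), Acta2 (1.79) and Col1a1 (1.06). Hgf and Lrat moved above Lum and Col1a2, and Acta2 and Col1a1 moved to the end. Reln exceeded Col3a1 in 21 of 24 adult livers, and Acta2 exceeded Col1a1 in 17.

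Genes related to the 10 by function were taken from lists drawn up apart from them. Of 39 tested genes for other collagens and matrix proteins, 24 fell and 7 rose in adult liver, with a median log2 difference of -0.94. Fbn2 (fibrillin 2, of elastic microfibrils) fell most, from 10.8 to 49.5 CPM in fetal to 0 to 0.429 CPM in adult liver, and Col5a3 (a collagen V chain) rose by 2.90 (SE 0.12). Of 23 collagen processing genes, 12 fell and 4 rose (median -0.61), with Lox (lysyl oxidase, which cross-links collagen) down by 4.31 (SE 0.26) and its relative Loxl4 up by 4.03 (SE 0.22). Of 16 matrix turnover genes, 7 fell and 4 rose (median -0.45), among them Mmp9 (a gelatinase), which fell by 5.66 (SE 0.19), and Serpine2 (a protease inhibitor), which rose by 1.32 (SE 0.12) with the sexes averaged. The Serpine2 medians were 36 CPM in adult males and 8.5 CPM in adult females, against 7.31 CPM in fetal livers, so the rise lay mostly in males. Of 11 smooth muscle contractile genes, 8 fell and 2 rose (median -0.85), Actg2 (enteric smooth muscle actin) by -4.09 (SE 0.81) and Mylk (myosin light chain kinase) by 1.69 (SE 0.12). Fetal livers ranged from 0.96 to 80.2 CPM of Actg2 with a median of 2.86 CPM. Without the 7 fetal livers with pancreas markers, 6 of the 11 smooth muscle genes fell and 2 rose (median -0.70).

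Other stellate cell genes did not share one direction. Of 20 tested, 8 rose and 6 fell, with a median of -0.03. Rgs5 (a pericyte regulator of G-protein signalling) rose by 4.66 (SE 0.25), and Gfap (an intermediate filament protein) fell by 4.69 (SE 0.15). Of 15 retinoid handling genes, 8 rose and 3 fell (median 0.66), with the retinal dehydrogenase gene Aldh1a1 up by 9.20 (SE 0.20), a gene hepatocytes also express, and the intestinal retinol-binding protein gene Rbp2 listed at 59.1 to 256 CPM in fetal livers and at 0 in all adult livers. Of 23 PDGF and TGF beta signalling genes, 8 rose and 7 fell (median 0.27), with the ligand gene Pdgfc up by 2.26 (SE 0.18) and Tgfb2 down by 1.79 (SE 0.22). Of 9 partners of HGF and reelin, 3 rose and 4 fell (median -0.38). Hpn (hepsin, a protease that activates pro-HGF) rose by 1.51 (SE 0.04), and the reelin receptor gene Lrp8 fell by 5.32 (SE 0.21). With plain totals the falls outnumbered the rises for other stellate cell genes (10 against 7) and for PDGF and TGF beta genes (11 against 5), whereas retinoid genes had more rises (7 against 4). Without the fetal livers with pancreas markers the balance turned for the partners of HGF and reelin, with 3 rises and 2 falls among 7 tested and a median of -0.03, and the median of the matrix turnover genes was -0.21.

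Markers of other cell types were read against the same background of 67.1% of all genes called. All 11 tested hepatocyte markers rose and all 10 red cell precursor markers fell in adult liver. Mesothelial markers fell in 7 of 8 cases, macrophage markers fell in 5 and rose in 2 of 12, cholangiocyte markers fell in 4 and rose in 1 of 7, portal fibroblast markers rose in 3 and fell in 2 of 6, and sinusoidal endothelial markers rose in 3 and fell in 1 of 12. Without the fetal livers with pancreas markers, cholangiocyte markers rose in 2 and fell in 3 of 7, and portal fibroblast markers rose in 2 and fell in 2 of 4. With plain totals, sinusoidal endothelial markers rose in 1 and fell in 7 of 12, and macrophage markers rose in 2 and fell in 10 of 12. Hepatocyte markers then rose in 7 of 11, and 72.4% of all genes were called. No pancreas marker passed the expression filter in this comparison, and the 2 tested pluripotency markers, with 1 at an unadjusted p under 0.05, were called by neither edgeR nor DESeq2. The part of cell composition in the fall of the matrix genes was not tested.

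Some fetal livers stood apart in these very genes. Female 14 held the highest fetal values of Acta2 (137 CPM), Des (37.3 CPM) and Lrat (59.6 CPM), and the next highest livers held 40.8, 8.35 and 27.2 CPM. The same liver had 114 CPM of pancreas markers and 1470 CPM of 8 intestinal epithelium markers, against 5.39 to 10.4 CPM in the other 23 fetal livers. That intestinal list was chosen after the values of this library had been seen. Female 15, with 879 CPM of pancreas markers, held the highest Col3a1 (815 CPM), Col1a2 (227 CPM) and Lum (71.3 CPM). Male 11, with 138 CPM, held the highest Col1a1 (199 CPM) and male 5, with 18.9 CPM, the next (126 CPM). With TMM scaling and both sexes pooled, Reln in these 7 livers stayed within the range of the other 17. Within males, male 12 at 455.7 CPM lay below the lowest male of the 17, at 488.3 CPM. On plain totals male 11 held 794.9 CPM, above the 17, whose highest value was 752.4 CPM.

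**Figure D3:**
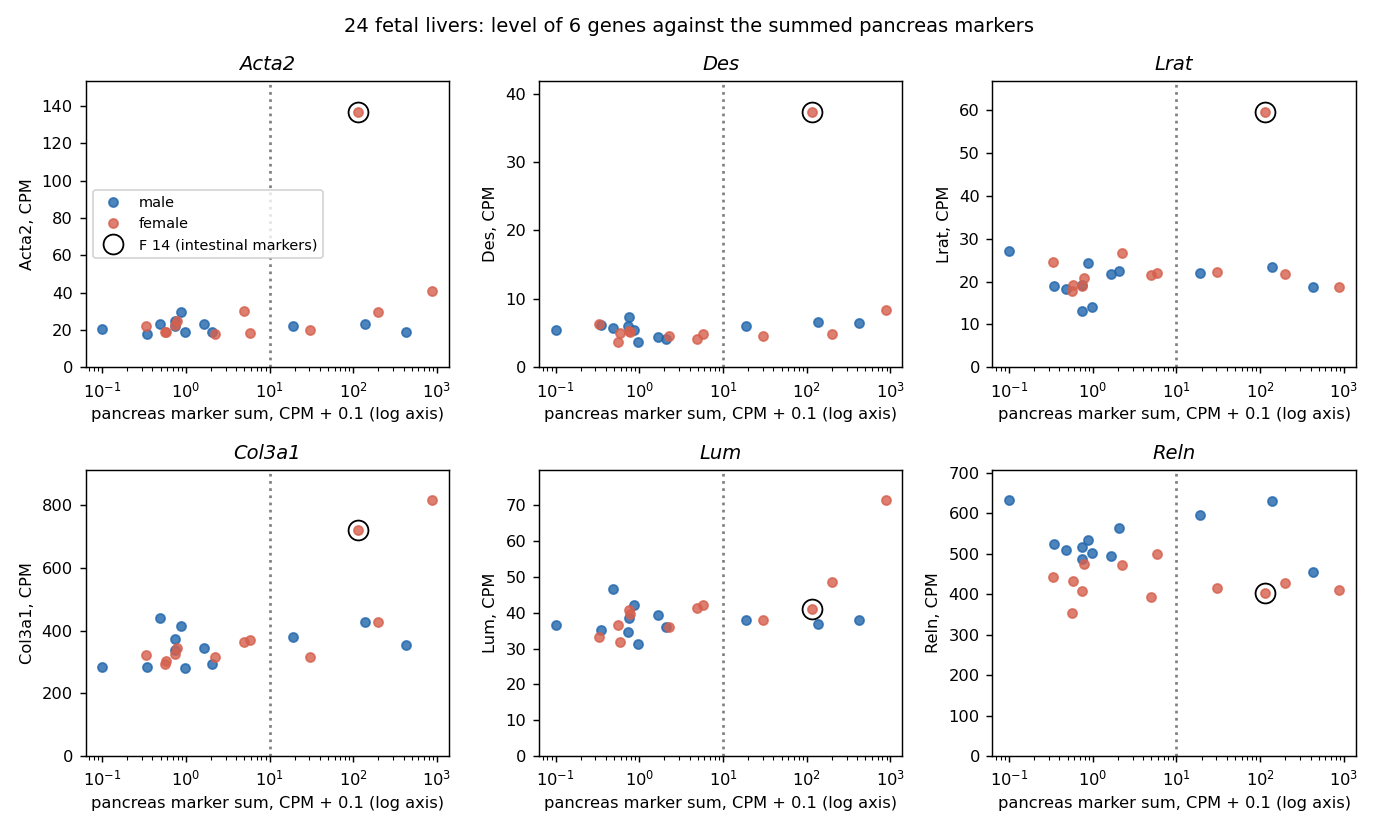
Level of Acta2, Des, Lrat, Col3a1, Lum and Reln in the 24 fetal livers (CPM) against the summed level of 8 pancreas markers (CPM plus 0.1, log axis); the dotted line is 10 CPM and the ring is female liver 14, the library with intestinal markers. Female 14 stands out in Acta2, Des, Lrat and Col3a1 and not in Lum or Reln.

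Between the sexes in adult liver, 1 of the 9 tested genes was called: Lum was lower in males. The background was 9.49% of 10372 genes called and 6.48% called lower in males, so 1 in 9 is near the background. All 9 log2 differences were below 0, from -0.54 to -0.09, with a median of -0.27 against 0.00 over all genes. Acta2, at 1 to 25 reads per library, did not pass the expression filter. Lum ranged from 8.29 to 22.8 CPM (mean 13.6 ± 4.91, SD, n = 12) in males and from 13.45 to 26.8 CPM (mean 19.7 ± 4.35, SD, n = 12) in females. In 6 of 12 males Lum lay below every female, the remaining ranges overlapped, and the log2 difference of males over females was -0.54 (SE 0.16, edgeR adjusted p = 0.0142). The call sat at the fold threshold: leaving out male 3, 6, 9 or 10 or female 22 gave -0.49, -0.49, -0.47, -0.48 or -0.49 and ended it. In the 16 livers with at least 40% of mapped reads on genes the difference was -0.41 (edgeR adjusted p = 0.178), and in the other 8 it was -0.90 (edgeR adjusted p = 0.0237).

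Hgf and Reln differed between adult males and females by less than the fold threshold. Hgf ranged from 35.28 to 53.12 CPM (mean 44.4 ± 5.91, SD, n = 12) in males and from 53.13 to 69.9 CPM (mean 58.4 ± 4.75, SD, n = 12) in females. On this scale the sexes did not overlap, though only just, and 2.82% of all genes tested had no overlap. With plain totals 10 of 12 males lay below every female. The log2 difference was -0.40 (SE 0.07, edgeR adjusted p = 4.70e-05), with -0.29 and -0.68 in the livers above and below 40% of mapped reads on genes. Reln ranged from 254 to 374 CPM (mean 307 ± 39.4, SD, n = 12) in males and from 300.9 to 465 CPM (mean 361.5 ± 46.1, SD, n = 12) in females, with a log2 difference of -0.25 (SE 0.07, edgeR adjusted p = 0.00874). The other 6 genes did not pass: Des -0.30, Col1a2 -0.29, Lrat -0.27, Col3a1 -0.26, Col1a1 -0.20 and Pdgfrb -0.09, with edgeR adjusted p from 0.149 to 0.67.

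**Figure D4:**
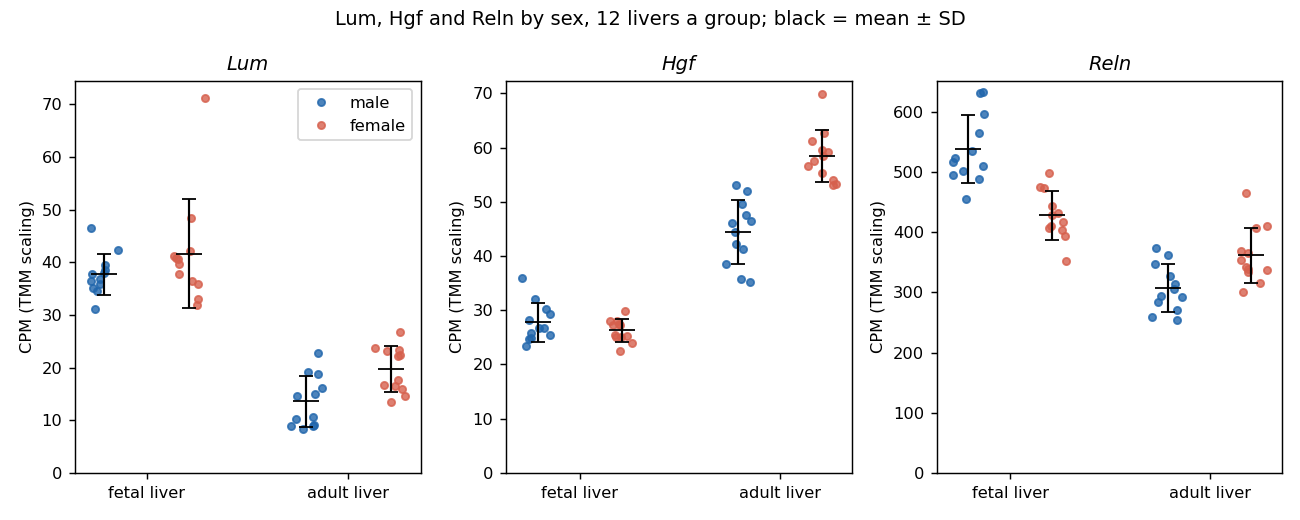
Lum, Hgf and Reln (CPM, TMM scaling) in 12 male and 12 female livers at each age; points are livers, and black lines give the mean and SD. In adult livers Hgf runs from 35.3 to 53.1 CPM in males and from 53.1 to 69.9 CPM in females; Reln lies higher in fetal males than in fetal females and lower in adult males than in adult females.

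Of all 984 genes called by sex in adult liver, 672 were lower in males, and the related lists are read against that split. Of 29 other matrix genes, 5 were lower in males (Col5a2, Ogn, Fbn1, Postn and Thbs2, by -1.20 to -0.53) and 1 was higher, Col5a3, at 93 CPM in males and 15.5 CPM in females by median (2.50, SE 0.11). Rgs5, of the other stellate cell genes, was lower in males (-0.68), and so were Rdh11, Rarb and Rarg among 13 retinoid genes (-0.79, -0.91 and -0.61). Collagen processing genes gave Loxl4 (-1.32) and Pcolce (-0.54) lower and P4ha2 (0.55) higher of 14, and matrix turnover genes gave Mmp14 (-0.56) lower and Serpine2 (1.97) higher of 9. Among the 6 partner genes, the reelin receptor gene Vldlr was lower (-2.92, SE 0.25) and Spint2, an inhibitor of HGF activation, was higher (0.54, SE 0.06). Smad6 was lower (-0.56) among 16 signalling genes. Of 10 smooth muscle genes neither edgeR nor DESeq2 called any, with 1 at an unadjusted p under 0.05.

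Some markers of other liver cells differed by sex in adult liver as well, where 9.49% of all genes were called and 6.48% were called lower in males. Summed portal fibroblast markers ranged from 38.9 to 78.5 CPM in males and 66.3 to 149 CPM in females, with Dpt and Gas6, the 2 tested members, both called lower in males. By median this sum was 49.6 CPM in males and 114 CPM in females, and Gas6 alone held 38.1 and 90.7 CPM. Macrophage markers ranged from 576 to 1000 CPM in males and 734 to 1510 CPM in females, and 7 of 12 were called lower in males. With plain totals, and also in DESeq2, 6 of 12 were called lower. Cholangiocyte markers ranged from 47.8 to 103 and from 82.2 to 151 CPM, with Spp1 and Prom1 called of 3 tested. Sinusoidal endothelial markers ranged from 834 to 920 and from 894 to 1130 CPM, with Lyve1 called of 12. Hepatocyte markers ranged from 56800 to 72100 and from 65400 to 82500 CPM, with Tdo2 called higher in males of 11. Red cell markers ranged from 240 to 348 and from 55.3 to 127 CPM, with Alas2 higher in males of 2 tested. By median the red cell sum was 271 CPM in males and 89.3 CPM in females, and Alas2 alone held 210 and 29.9 CPM. The single tested mesothelial marker and the single tested pluripotency marker were not called by edgeR or DESeq2, with 0 and 1 at an unadjusted p under 0.05. The part of these markers in the Lum, Hgf and Reln differences was not tested.

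Between the sexes in fetal liver, 1 of the 10 genes was called: Col1a1 was higher in males. The background was 4.64% of 12930 genes called and 3.81% higher in males. Col1a1 ranged from 37.2 to 199 CPM (median 59.0) in males and from 17.5 to 92.3 CPM (median 33.05) in females. In 9 of 12 females Col1a1 lay below every male, while females 14, 15 and 18 lay within the male range, and the log2 difference of males over females was 0.98 (SE 0.31, edgeR adjusted p = 0.0199). Without the 7 livers with pancreas markers it was 1.03 (edgeR adjusted p = 0.000756), and Col1a2 was then called as well (0.55, edgeR adjusted p = 0.00671), against 4.29% of all genes. Reads of Col1a1 per read of Col1a2, the 2 chains of 1 collagen, ranged from 0.372 to 0.974 (median 0.48) in males and from 0.239 to 0.453 (median 0.338) in females.

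Reln was higher in fetal males without passing the fold threshold. Males ranged from 456 to 632 CPM (median 520.5) and females from 353 to 499 CPM (median 422), and 9 of 12 males lay above every female. The log2 difference was 0.36 (SE 0.06, edgeR adjusted p = 4.44e-05). Pdgfrb gave 0.26 (edgeR adjusted p = 0.0633), also under the fold threshold, and the other 7 genes had adjusted p of 0.159 or more. Sex and the share of reads outside genes cannot be told apart in fetal liver, because the sexes did not overlap in that share. With this share as a covariate 9 genes were called in all, none of the 10 among them, with Col1a1 at -0.57 (edgeR adjusted p = 0.982) and Reln at 0.14 (edgeR adjusted p = 0.974).

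**Figure D5:**
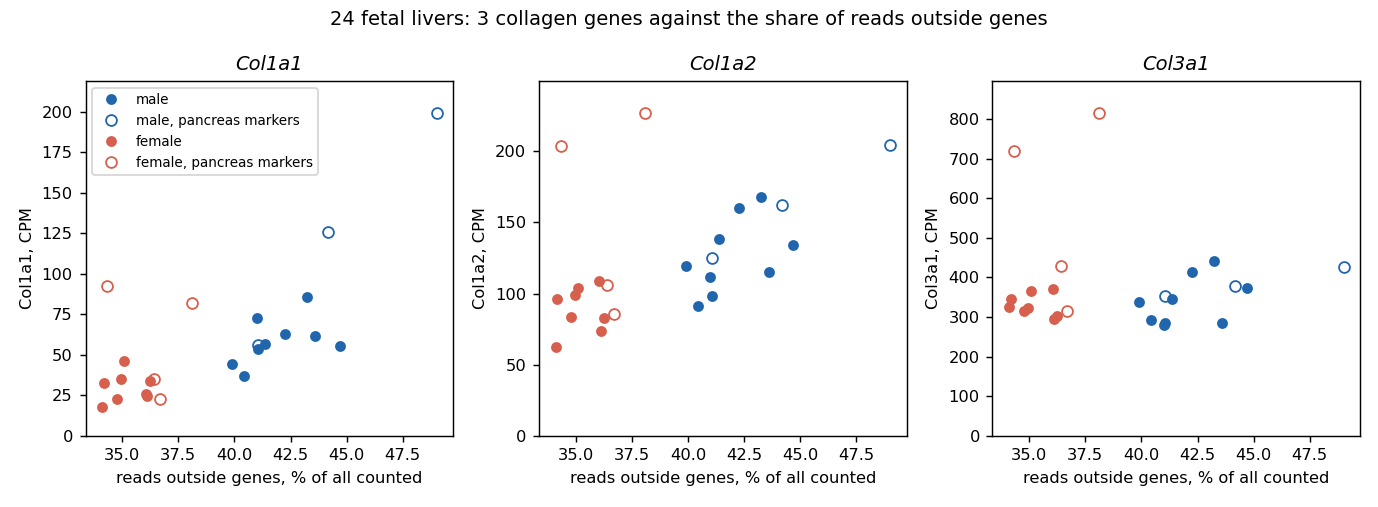
Col1a1, Col1a2 and Col3a1 (CPM) in 24 fetal livers against the share of counted reads outside annotated genes (%); blue is male, red is female, and open circles are the 7 livers with pancreas markers. Males lie between 39.9 and 49.0% and females between 34.1 and 38.1%, so the sexes fill separate parts of the axis.

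In the related lists, counts of genes called by sex in fetal liver are read against 4.64% of all genes. Without the livers with pancreas markers that background was 4.29%. The limit on reads outside genes holds here too, because the sexes did not overlap in that share. With it as a covariate only 9 genes in all were called, but that fit cannot separate the share from sex. Other matrix genes had 3 of 37 higher in males, PDGF and TGF beta genes 3 of 21, other stellate cell genes 1 of 19, and smooth muscle genes 1 higher and 2 lower of 11. Retinoid genes had 2 of 13 lower in males, cholangiocyte markers 2 higher and 3 lower of 7, and sinusoidal endothelial markers 1 of 12 higher. Without the livers with pancreas markers, smooth muscle genes had 1 higher and 0 lower, retinoid genes 1 lower, cholangiocyte markers 2 higher and 0 lower and sinusoidal markers 0, while other matrix genes had 7, PDGF and TGF beta genes 4, collagen processing genes 1 and pluripotency markers 1 higher. In DESeq2 on all livers, smooth muscle genes had 1 higher and 0 lower and cholangiocyte markers 2 higher and 1 lower. In all livers neither edgeR nor DESeq2 called any of 23 collagen processing, 16 matrix turnover or 9 partner genes, of which 7, 2 and 3 had an unadjusted p under 0.05. The same held for 10 hepatocyte, 10 red cell, 12 macrophage, 8 mesothelial, 5 portal fibroblast and 2 pluripotency markers, of which 0, 4, 5, 3, 0 and 1 had an unadjusted p under 0.05.

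The sex difference itself was compared between the ages by an interaction term over all 48 livers, for which 13.7% of 13026 genes were called and 8.53% called with the lower value in adult liver. Reln was called: its log2 difference of males over females was lower in adult than in fetal liver by 0.56 (-0.56, SE 0.09, edgeR adjusted p = 5.70e-06), with males higher in the fetus and lower in the adult. Hgf gave -0.46 (SE 0.09, edgeR adjusted p = 0.000141), under the fold threshold, with fetal livers at 0.10 and adult livers at -0.40. For Col1a1 the difference was -1.13 (SE 0.55, edgeR adjusted p = 0.124) and for Lum -0.38 (SE 0.19, edgeR adjusted p = 0.144), neither of them called. In the same 48 livers DESeq2 called 3 of the 10 genes, Reln, Col1a1 (-1.16, DESeq2 adjusted p = 0.0254) and Col1a2 (-0.58, DESeq2 adjusted p = 0.0807). Without the 7 livers with pancreas markers Col1a1 (-1.17), Col1a2 (-0.79), Lum (-0.53) and Reln (-0.52) were called, against 14.4% of all genes. The fetal side of each of these contrasts carries the limit on reads outside genes given above.

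The genes varied together among livers to an uneven degree. Over the 45 pairs of the 10 genes in 24 fetal livers, centred within sex, the median Pearson correlation of log2 CPM was 0.412, and in the 17 livers without pancreas markers it was 0.174. Col1a2 and Col3a1 were the most alike, at 0.936 in all fetal livers, 0.817 in the 17, and 0.76 in 24 adult livers. Des and Acta2 were at 0.875 in all fetal livers and at 0.174 in the 17. Female 14 held 37.3 CPM of Des and 137 CPM of Acta2, and the next highest livers held 8.35 and 40.8 CPM. The correlation without female 14 alone was not computed, and the cause of the drop was not tested. In adult liver the median over 36 pairs of 9 genes was 0.351. These values share libraries and depth and are a description.

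The 5 genes outside the set that varied most like its mean score in fetal liver held their likeness to different degrees without the livers with pancreas markers. Col6a3 (a collagen VI chain) had a correlation of 0.959 over 24 fetal livers and 0.907 over the 17, and Thbs2 (thrombospondin 2) had 0.938 and 0.90. Fbn1 (fibrillin 1), Fat4 (a protocadherin) and Sparcl1 (a matrix-associated glycoprotein) had 0.932, 0.931 and 0.92 over 24 livers but 0.687, 0.639 and 0.69 over the 17. In 24 adult livers the 5 nearest genes by Pearson correlation were Tnxb (tenascin XB) at 0.87, Abcc9 (a channel subunit of pericytes and muscle) at 0.83, Cbx7 (a Polycomb protein) at 0.822, Dcn (the proteoglycan decorin) at 0.757 and Col6a1 (collagen VI) at 0.752. By Spearman rank correlation they stood, in the same order, at places 1, 2, 5, 10 and 21.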

How the data were processed

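The authors deposited a table of raw read counts per gene for each of the 64 libraries, not normalized. Per the labels and the study's methods, reads were mapped with TopHat2 2.0.4, Bowtie2 2.1.0 and SAMtools 0.1.18 to mm10, duplicates were removed with Picard, and reads were assigned to genes with HTSeq, whose strand setting is not given in the sources used here. The embryo libraries were amplified, and the sex of ES lines and fetuses had been set by PCR for Sry. The 5 summary lines of each table were left out of the library totals. The line for reads in no gene gave the share outside genes. It was 8.63 to 14.4% of counted reads in embryos, 26.7 to 31.3% in ES lines, 34.1 to 49.0% in fetal and 25.7 to 36.6% in adult livers. Counted reads here are those on genes, in no gene or ambiguous between genes.

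Counts were tested with edgeR 4.0.16 in R 4.3.3 (TMM, filterByExpr, robust quasi-likelihood fit, two-sided, Benjamini-Hochberg over all genes tested) using the study's thresholds, an adjusted p under 0.1 and an absolute log2 above 0.5. Adult was set against fetal liver with sexes weighted equally, males against females within each age, fetal liver against ES lines, and the sex difference between ages by an interaction term; embryos were described only. SE is the absolute log2 difference divided by the square root of F. The fits were first tested on simulated counts. Alternatives used DESeq2 1.42.0, other size factors, no filter, subsets of livers, covariates, a replicate block and the omission of each sample. CPM per kb used the longest GENCODE transcript (GRCm38), and promoters came from RefSeq. Summaries and plots used Python 3.11.15, NumPy 2.4.6, pandas 2.3.3, SciPy 1.17.1 and Matplotlib 3.10.9.

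All 10 genes are named. From each other list the text names the called genes with the largest rise and fall between the ages and those called by sex in adult liver, and per age the 5 genes most correlated with the mean score of the set (log2 CPM, pseudocount 0.5). One gene that this rule would name is not reported here. The members and lists were chosen with earlier results of these data known. Each liver is labelled as a separate sample and the litter is not given, so p-values measure the spread between these samples; intervals and floors of 3 reads cover counting error only.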

Additional observations from a re-analysis of the deposited data

Results flagged for a closer look

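Reln and Hgf had an adjusted p under 0.1 for the interaction of age and sex in edgeR's quasi-likelihood test; Reln was called, and Hgf, under the fold threshold of 0.5, was not. For Reln the log2 difference of males over females changed by -0.563 from fetal to adult liver (Benjamini-Hochberg adjusted p = 5.70e-06), and for Hgf by -0.457 (adjusted p = 0.000141). For Reln 9 of 12 fetal males lay above every fetal female, and for Hgf 12 of 12 adult males lay below every adult female with TMM scaling. The sexes of the fetal livers did not overlap in the share of reads outside genes, so these cannot be told apart on the fetal side.

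Reln was also read in the embryos, which entered no comparison. Female embryos 8, 9 and 11 held 3.81, 3.95 and 6.56 CPM of Reln on plain totals, above the 3 reads that a count of 0 allows, which was 0.544, 0.515 and 0.402 CPM in these libraries. No read of Reln was found in the other 3 female or the 6 male embryos, and no read of the other 9 genes in any embryo. A difference between embryo sexes was not tested.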

How the results depend on the processing

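For single genes and levels over all settings, counts of called genes aside, 868 values kept direction and side of the threshold, 27 reversed, 15 came past the threshold, 9 fell short of it and 7 moved; the causes were not tested. In adult liver by sex, no fold threshold gave 3400 genes and 3 of the set, no expression filter 1518 genes, livers with at least 40% of mapped reads on genes 0 of the set (Hgf -0.29, adjusted p = 0.0101, and Reln -0.24, adjusted p = 0.0595, in edgeR, both under the fold threshold) and the other livers 2; leaving out each liver gave 0 to 1 of the set and Col1a1 from -0.335 to 0.0183. In fetal liver by sex, no fold threshold gave 4807 genes and 3 of the set, no filter 1057 genes, and omission of the livers with pancreas markers 2 of the set. When the mapped share on genes entered as covariate, 29 genes and 0 of the set were called, and with the share of reads outside genes 9 and 0; leaving out each liver moved Des from -0.538 to 0.154. For the interaction, no fold threshold gave 4384 genes and 2 of the set, DESeq2 3, omission of the livers with pancreas markers 4, and omission of female fetal liver 14 3.

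Reversed values between the ages were Pdgfrb at -0.0035 (DESeq2) and -0.47 (plain totals), and Des at 0.334 without the livers with pancreas markers, 0.266 without female 14 and 0.0309 with at least 40% of mapped reads on genes. By sex in fetal liver they were, without the livers with pancreas markers, Col3a1 0.0744, Des 0.185, Lum 0.0479 and Acta2 0.0829; Des 0.154 with DESeq2 and without female 14; with the mapped share as covariate Col1a2 -0.00995, Des 0.404, Lrat 0.0468 and Acta2 0.213; and with the share outside genes Col1a1 -0.574 and Col1a2 -0.489. For the interaction they were Lrat at -0.000461 (DESeq2), -0.00919 (plain totals), -0.145 (without the livers with pancreas markers) and -0.179 (without female 14), with Des at -0.424 and -0.401 and Acta2 at -0.58 and -0.413 in the latter pair of settings. All of these genes were outside the calls except Col1a1.

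Fetal and adult titles share the numbers 1 to 24. Same-numbered livers had correlations of deviations from -0.0923 to 0.0448 over 24 pairs, 0 of them above 0.1. The shared number thus gave no sign of pairing in expression, though such correlations cannot exclude a shared litter or batch. With the number as a replicate block 8753 genes and 8 of the set were called between the ages, and Des was 0.108.

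Depth limited Acta2 in adult liver (1 to 25 reads) and Col1a1 (3 to 48 reads).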
